A study of Mus musculus with 9 samples.

Results

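The potassium channel family was followed here across 9 RNA sequencing libraries of cells sorted from mouse nucleus accumbens. Its members were all protein-coding genes whose symbol begins with Kcn followed by a letter, a rule that reads the symbol and no expression value. The rule found 94 genes among the 52636 genes of the count table. They comprise 40 pore-forming or silent subunits of voltage-gated channels, 13 auxiliary subunits or regulators, 15 inward rectifiers, 14 two-pore channels and 12 genes of calcium- or sodium-activated channels and their subunits.

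Male C57BL/6 mice supplied the tissue, and cells stained for ChAT, which synthesises acetylcholine, were collected by flow sorting. Mice of the groups titled SUS and RES took cocaine by their own responses, 1.2 mg/kg in each infusion, first under a fixed ratio schedule with up to 40 infusions and then over 10 daily progressive ratio sessions, in which each infusion costs more responses. Drug-naive mice, titled WT and called naive here, were the controls. Each group had 3 libraries, and punches were pooled from 2 to 3 mice per condition. For RES and SUS the titles and the phenotype field of the labels give opposite descriptions, so groups go by their titles here, and a difference between them is not assigned to susceptibility or resilience. Whether the 3 libraries of a group hold different pools of mice is not in the labels, and the p-values therefore cover only the variation among these 9 libraries.

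Total counts per library ran from 4471675 to 11155730, of which the 94 genes held between 0.175% and 0.325%. To compare levels between genes, the counts per exonic kb of each gene were divided by those of 1134 olfactory receptor genes in the same library, a group that brain cells are not known to use widely. That ratio is called times background below. Where 3 values of a group are given, they are replicates 1, 2 and 3 in that order. Of 11 genes that define cholinergic interneurons, 0 averaged 3 times background or more, and their median lay between 0.941 and 1.89 in every library. The gene Chat stood at 1.27, 7.86 and 0.877 times background in SUS, at 1.38, 2.5 and 1.88 in RES and at 1.64, 1.54 and 1.93 in naive. The defining genes of the labelled cell type were thus near background, apart from Chat in SUS replicate 2, while lists of neuronal, astrocyte, oligodendrocyte and microglial genes were above it to a degree that differed between libraries. In such bulk samples fewer cells of a type and less RNA per cell cannot be told apart.

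Potassium channels let potassium ions leave, or in part enter, a cell and so set its resting potential, its firing threshold and the shape and rate of its action potentials. Voltage-gated channels open on depolarisation, calcium- or sodium-activated channels follow the ions that enter during activity, inward rectifiers hold the membrane near the potassium equilibrium potential, and two-pore channels carry the background leak. In the striatum, inward rectifiers and A-type voltage-gated channels are known for keeping medium spiny neurons silent until strongly excited, and M-type and calcium-activated channels for pacing the tonic firing of cholinergic interneurons. Astrocytes and microglia have channels of their own, such as Kcnj10 in astrocytes and Kcnk13 in microglia.

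Most of the 94 genes were near background. A mean of at least 3 times background over the 9 libraries was reached by 24 of them (25.5%), beside 5757 of 21883 protein-coding nuclear genes (26.3%). A further 59 averaged between 1 and 3 times background and 11 less than 1. The median of the family was 1.76 times background, beside 1.97 for all protein-coding genes. Just inside the threshold lay Kcnu1 and Kcnab1 at 3.24 and 3.14 times background, and just outside it Kcnk13 and Kcnq3 at 2.91 and 2.80. The threshold is relative: against 297 vomeronasal receptor genes, whose counts per kb were 3.47 to 3.66 times lower than those of olfactory receptor genes, 86 of the 94 genes passed it (91.5%), beside 86.6% of protein-coding genes.

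**Figure D1:**
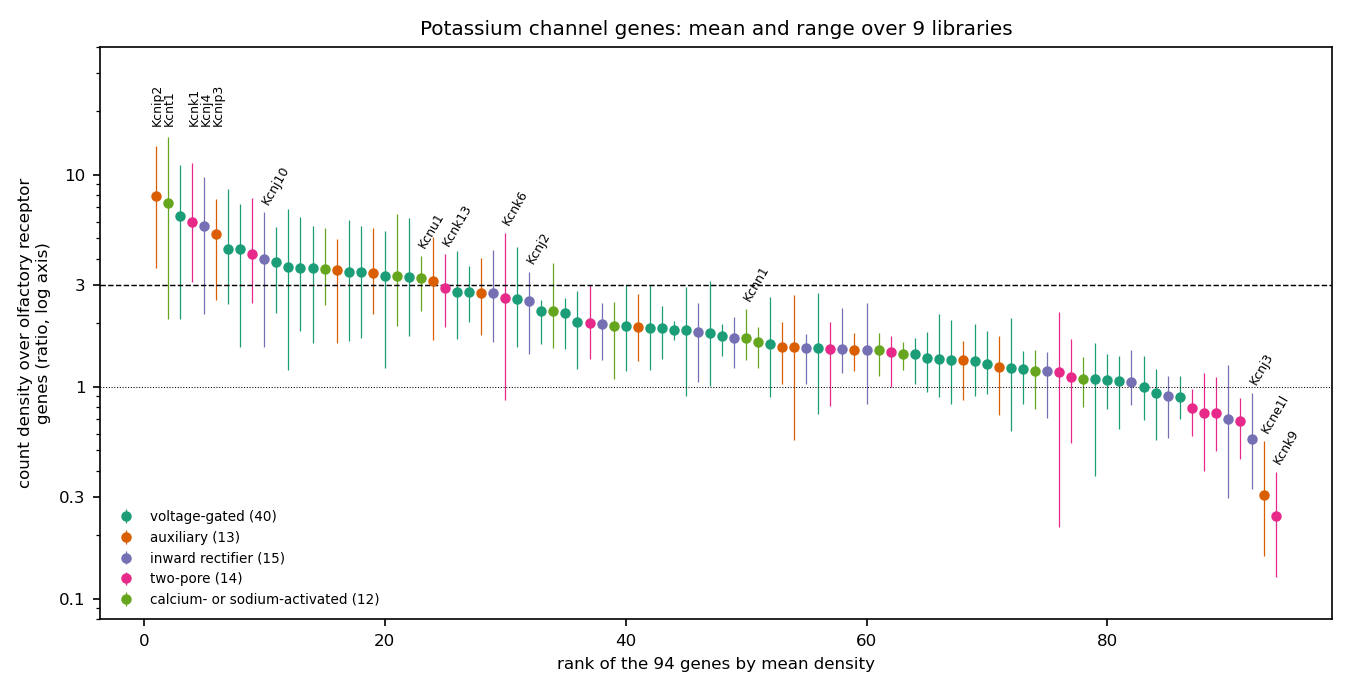
Level of each of the 94 potassium channel genes, ranked by mean. Points are means over the 9 libraries, lines run from the lowest to the highest library, and colours give the channel class. The vertical log axis is the ratio of a gene's counts per exonic kb to those of olfactory receptor genes, with dashed and dotted lines at 3 and 1 times background. Kcnip2 is highest at 7.94, and Kcnk9 lowest at 0.246.

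Among auxiliary subunits 5 of 13 were at 3 times background or more, with Kcnip2 highest in the whole family. Kcnip2 encodes a calcium-binding partner that brings A-type channels to the membrane. It was at 5.07, 12.0 and 4.31 times background in SUS, 6.51, 13.7 and 3.64 in RES, and 5.45, 11.1 and 9.74 in naive. Replicate 2 was the highest library in each group. Kcnip3, a relative that also acts as a calcium-sensitive repressor of transcription, was at 5.22, 6.71 and 4.8 in SUS, 4.28, 7.68 and 2.55 in RES, and 3.8, 6.27 and 5.79 in naive. Kcnab1 and Kcnab2, cytoplasmic beta subunits of Kcna channels, ranged from 1.66 to 5.10 and from 2.19 to 5.60 times background over all 9 libraries. Kcne3, a single-pass partner of Kcnq and other channels, ranged from 1.6 to 4.98, and was lowest in SUS replicate 3 and highest in RES replicate 3. Kcnip4 averaged 2.77 times background, and Kcnip1, Kcnab3, Kcne4, Kcne2, Kcne1 and Kcnrg averaged from 1.24 to 1.90. Kcne1l, at 0.307, was the 1 gene of the family that did not pass the filter on low counts.

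Voltage-gated subunits made up 11 of the 24 genes. Kcnq3, a subunit of the M-type channels that muscarinic receptors close, averaged 2.80 and its relative Kcnq5 3.29 times background, with ranges of 1.67 to 4.34 and 1.73 to 6.26. The Kcna genes, channels of axons and terminals, were led by Kcna4 (2.46 to 8.58), Kcna1 (1.20 to 6.88) and Kcna2 (1.70 to 5.74), while Kcna3, known from lymphocytes and microglia as well as neurons, averaged 2.01. Kcnd2, a pore subunit of A-type channels, was at 2.88, 6.28 and 1.82 times background in SUS, 3.53, 6.09 and 1.97 in RES, and 2.18, 3.74 and 4.27 in naive. Its relative Kcnd3 averaged 1.89. Kcnc1, a channel of fast-spiking neurons, averaged 3.34 times background and Kcnc4 1.08. The ether-a-go-go relatives Kcnh4, Kcnh3 and Kcnh1 averaged 3.86, 3.61 and 3.48, and Kcnh7 1.21. Kcnh5, Kcnh2 and Kcnh6 of the same subfamily averaged 2.78, 2.59 and 2.28. The silent subunits of the Kcnf, Kcng, Kcns and Kcnv subfamilies, which form no channel alone but modify other voltage-gated channels, did not reach the threshold and ran from 0.93 for Kcng2 to 1.94 for Kcng1. Kcng2 and Kcnc2, a channel of fast-spiking interneurons, were the 2 voltage-gated genes under 1.

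Of the 15 inward rectifiers, 2 were at 3 times background or more. Kcnj4, a strong rectifier of forebrain neurons, was at 3.54, 9.61 and 2.19 times background in SUS, 4.76, 9.64 and 3.09 in RES, and 3.36, 5.59 and 9.79 in naive. Kcnj10, through which astrocytes take up potassium, was at 6.64, 2.22 and 3.03 in SUS, 3.61, 6.31 and 1.54 in RES, and 2.79, 4.57 and 5.31 in naive. Both were high in RES replicate 2 and naive replicate 3, while Kcnj10 was highest in SUS replicate 1, in which Kcnj4 was among the lower values. Kcnj16, which joins Kcnj10 in heteromeric channels, averaged 1.81, and Kcnj2, a strong rectifier of neurons, muscle and glia, 2.52 with a range of 1.43 to 3.49. The channels that G-protein-coupled receptors open stood at 2.76 (Kcnj9), 1.05 (Kcnj6) and 0.563 (Kcnj3) times background, where 31.1% of the exonic bases of Kcnj3 are shared with another annotated gene. The subunits gated by ATP, Kcnj8 and Kcnj11, averaged 1.70 and 1.49. Of the rest, Kcnj14, Kcnj15, Kcnj12 and Kcnj1 averaged from 1.18 to 1.98, and Kcnj5, Kcnj13 and Kcnj3 were the 3 inward rectifiers under 1.

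Two-pore channels had 2 of 14 genes at 3 times background or more, and 5 under 1. Kcnk1, which is found in neurons and astrocytes, was at 5.13, 4.96 and 4.55 times background in SUS, 4.09, 8.78 and 3.10 in RES, and 4.08, 7.96 and 11.3 in naive. The 3 SUS libraries lay within a narrow band, and the other groups were spread around it. Kcnk2, a leak channel opened by stretch and fatty acids, ranged from 2.49 to 7.76, with 12.2% of its exonic bases shared with another gene. Kcnk13, the leak channel of resting microglia, was at 4.24, 1.90 and 4.01 times background in SUS, 2.53, 3.05 and 2.12 in RES, and 2.32, 3.33 and 2.66 in naive. Kcnk6, a relative found in macrophages and microglia, was at 5.04, 1.21 and 5.32 in SUS, 2.08, 1.54 and 0.862 in RES, and 2.30, 3.97 and 1.24 in naive. Both were high in SUS replicates 1 and 3 and low in SUS replicate 2. The acid-sensitive leak channels Kcnk3 and Kcnk9 averaged 0.689 and 0.246 times background, and Kcnk9 was the lowest of all 94 genes. Kcnk4, Kcnk15 and Kcnk18 were also under 1, and Kcnk7, Kcnk10, Kcnk5, Kcnk12 and Kcnk16 averaged from 1.11 to 2.00.

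Calcium- or sodium-activated channels were led by Kcnt1, a sodium-activated channel of neurons, at 5.56, 10.7 and 2.08 times background in SUS, 6.59, 15.1 and 3.38 in RES, and 4.67, 8.83 and 9.20 in naive. Kcnma1, the large-conductance calcium-activated channel, was more even, from 2.43 to 5.59 over the 9 libraries, and its neuronal beta subunit Kcnmb4 averaged 1.48, with 31.5% of its exonic bases shared with other genes. Of the small-conductance channels, Kcnn3 averaged 3.34, Kcnn2 2.28 and Kcnn1 1.69 times background, and the intermediate-conductance channel Kcnn4, known from blood cells and microglia, 1.09. The beta subunits Kcnmb1, Kcnmb2 and Kcnmb3 averaged 1.63, 1.19 and 1.94. Kcnu1, the sperm channel that is not known from brain, stood at 2.27 to 4.14 times background in all 9 libraries.

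Promoters are shown for 4 of these genes, chosen for the cells they are known from: the neuronal genes Kcnip2 and Kcnj4, the astrocyte gene Kcnj10 and the microglial gene Kcnk13. Each sequence is the 250 bases before the start of the gene in RefSeq (GRCm38.p6), 5′ to 3′ on the strand of the gene, with CpG sites in capitals. Kcnip2 lies on the minus strand (chr19:45816064-45816313), as does Kcnj4 (chr15:79505242-79505491), while Kcnj10 (chr1:172340960-172341209) and Kcnk13 (chr12:99964249-99964498) lie on the plus strand.
Kcnip2: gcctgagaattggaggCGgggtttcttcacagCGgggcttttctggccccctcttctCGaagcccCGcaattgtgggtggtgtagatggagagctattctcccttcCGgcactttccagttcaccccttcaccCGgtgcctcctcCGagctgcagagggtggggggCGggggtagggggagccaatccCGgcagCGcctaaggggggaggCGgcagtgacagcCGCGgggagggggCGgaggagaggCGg
Kcnj4: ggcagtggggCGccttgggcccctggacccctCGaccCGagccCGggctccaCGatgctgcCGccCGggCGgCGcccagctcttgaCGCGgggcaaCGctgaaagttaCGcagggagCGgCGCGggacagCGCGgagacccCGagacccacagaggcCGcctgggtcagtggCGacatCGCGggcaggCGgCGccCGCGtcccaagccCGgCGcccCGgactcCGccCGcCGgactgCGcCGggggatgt
Kcnj10: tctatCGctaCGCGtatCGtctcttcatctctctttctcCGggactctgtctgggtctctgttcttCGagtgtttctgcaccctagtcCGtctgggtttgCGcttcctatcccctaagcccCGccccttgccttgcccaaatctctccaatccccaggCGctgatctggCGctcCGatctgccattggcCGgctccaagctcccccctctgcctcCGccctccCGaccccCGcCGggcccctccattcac
Kcnk13: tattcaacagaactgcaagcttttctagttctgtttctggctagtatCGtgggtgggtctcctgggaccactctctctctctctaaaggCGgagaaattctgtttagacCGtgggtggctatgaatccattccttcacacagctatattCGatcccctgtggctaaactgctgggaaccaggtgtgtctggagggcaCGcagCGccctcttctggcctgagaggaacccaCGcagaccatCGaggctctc
Within these 250 bases Kcnip2 has 15 CpG sites, Kcnj4 35, Kcnj10 17 and Kcnk13 8. Longer windows ran over 300 bases, from 250 before to 50 after the start. The RefSeq promoter set used here held 69 of the 94 genes by symbol, and the others were not looked up elsewhere. Where a gene had several windows, the one with most CpG sites was taken. The 18 matched genes at 3 times background or more had a median of 24 CpG sites and the other 51 a median of 9. The same division of all protein-coding genes gave 23 and 11. The letters TATAAA, on either strand, occurred in 3 of the 69 windows (4.35%), beside 13.7% of the windows of all 27025 genes in the promoter set. CCAAT occurred in 18 of 69 (26.1%), beside 37.4%. Unlike in the CpG comparison, these 27025 genes were not limited to protein-coding genes. The windows of Kcnip2 and Kcnj10 were among those with CCAAT, and the 3 with TATAAA were Kcnj9, Kcnj13 and Kcnj15.

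Libraries of the same group differed widely in these genes. Per library, 17, 29 and 9 of the 94 genes reached 3 times background in SUS replicates 1 to 3, 15, 31 and 7 in RES, and 9, 27 and 29 in naive. The highest of the 9 libraries exceeded the lowest 2.84-fold in CPM at the median of the 24 genes, and 2.02-fold at the median of the other 70. CPM here and below are counts brought to a common library size with TMM scaling, which is meant to lessen effects of library composition but did not remove them here. Of the 24 genes, 17 were lowest in SUS replicate 3 (70.8%) on this scale, where 18.8% of all protein-coding genes at 3 times background were lowest. In RES replicate 3, 5 of the 24 were lowest (20.8%), beside 60.5% of those protein-coding genes. On the scale of times background the same shares were 70.8% beside 20.1% in SUS replicate 3 and 20.8% beside 66.6% in RES replicate 3.

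**Figure D2:**
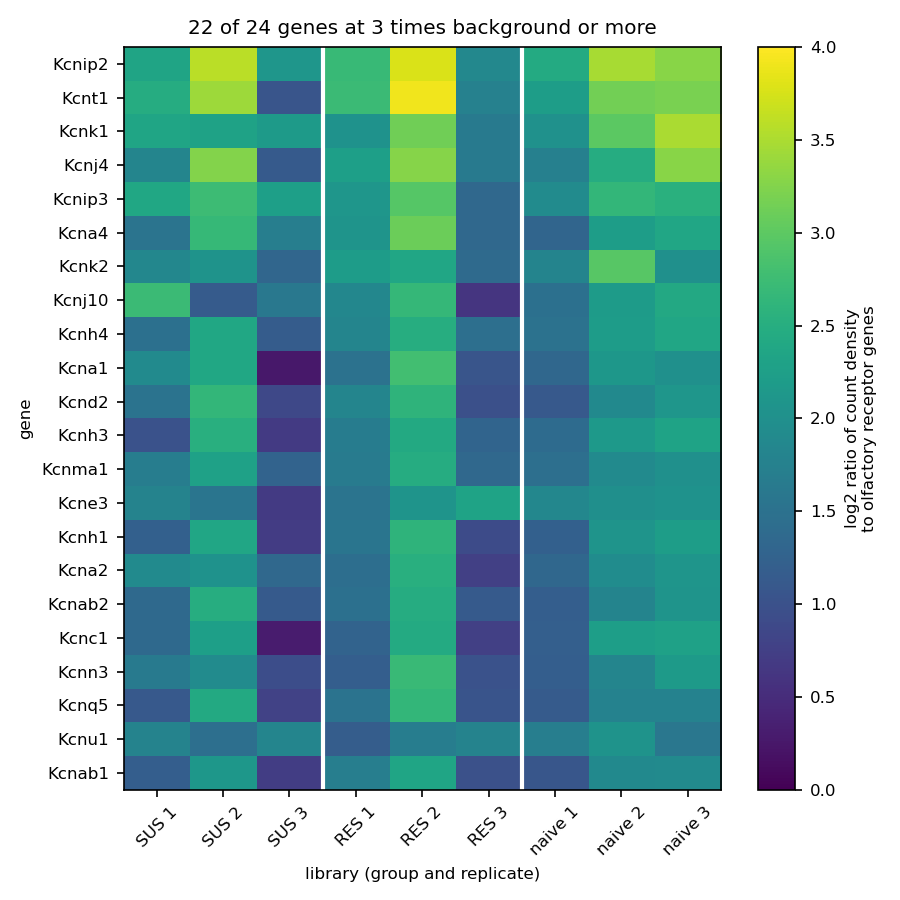
Levels of 22 of the 24 genes at 3 times background or more in each library, as the log2 ratio of counts per exonic kb to those of olfactory receptor genes. Columns are libraries in the order SUS, RES and naive, separated by white lines. Bright columns are SUS replicate 2, RES replicate 2 and naive replicates 2 and 3, and Kcnj10, Kcne3 and Kcnu1 depart from the common pattern.

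Marker genes of other cells moved with these values. A list of 10 pan-neuronal genes, 9 of them at 3 times background or more and none at 0 in a library, had medians of 5.23, 9.66 and 3.72 times background in SUS, 6.97, 10.7 and 3.24 in RES, and 4.87, 9.01 and 8.86 in naive. Its summed level was 470 to 1182 CPM in SUS, 465 to 1197 in RES and 625 to 1083 in naive. The 5 libraries with the highest Kcnip2 and the 5 with the highest Kcnt1 were the 5 with the highest neuronal medians, and the 2 lowest were also shared. The microglial list of 12 genes, all at 3 times background or more and none at 0, had medians of 61.1, 3.26 and 68.4 in SUS, 22.4, 1.98 and 2.15 in RES, and 23.4, 50.4 and 4.17 in naive. It summed to 234 to 5042 CPM in SUS, 133 to 1545 in RES and 277 to 2894 in naive. The 5 libraries with the highest Kcnk6 were the 5 highest for this list, in the same order. For Kcnk13 the 3 highest libraries were the 3 highest of the list, but of its 5 highest on the scale of times background only these 3 were shared. Kcnd1, an A-type pore subunit named after its values were seen, was set beside the same list. In CPM its 5 highest libraries were the 5 highest of the list, in another order, and on the scale of times background 4 of its 5 highest were shared. The astrocyte list of 10 genes, 8 of them at 3 times background or more and none at 0, summed to 1531 to 2113 CPM in SUS, 811 to 3956 in RES and 1268 to 3774 in naive. The 5 libraries highest in Kcnj10 were its 5 highest, but in another order, and 1 of the 2 lowest was shared. Kcnj10 was highest in SUS replicate 1, where the astrocyte median was 7.34 times background, beside 13.1 in RES replicate 2. The oligodendrocyte list had its highest median, 16.5, in SUS replicate 1 too. Apart from Kcnd1, each of these channel genes was set beside the list of the cells it is known from, so the matches are not particular to such genes. All values of a library share its depth and preparation, and the part of these cells in the channel values was not tested.

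**Figure D3:**
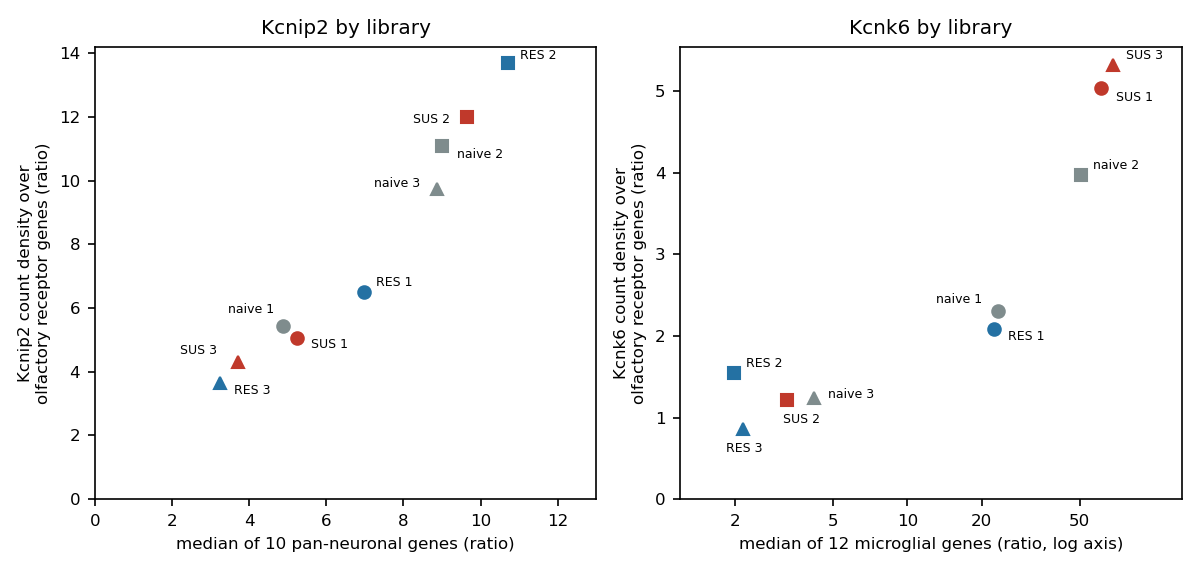
Kcnip2 against the median of 10 pan-neuronal genes (left) and Kcnk6 against the median of 12 microglial genes (right), 1 point per library. All axes are ratios of counts per exonic kb to those of olfactory receptor genes, and the microglial axis is logarithmic. Kcnk6 is at 5.04 and 5.32 times background in SUS replicates 1 and 3, where the microglial medians are 61.1 and 68.4, and at 1.21 in SUS replicate 2, where the median is 3.26.

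In SUS compared with naive libraries no potassium channel gene passed the test, and the channel genes of neurons and glia overlapped between the groups with few exceptions. The edgeR quasi-likelihood test with Benjamini-Hochberg adjustment called 0 of 93 genes of the family and 0% of all 39210 genes. At an unadjusted p under 0.05 there were 2 genes of the family (2.15%), beside 3.12% of all genes. At that limit DESeq2 gave 0 of the family, beside 931 of the 39210 genes. Limma-voom gave 8 of the 93, beside 3225 of the 39210 genes, and neither method called any. The median log2 fold change of the family was -0.07 with 40 positive and 53 negative values, and that of all genes 0.02. The median standard error (SE) of a gene of the family was 0.30 on the log2 scale.

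Kcnj2 separated the groups in level, with 29.1, 27.4 and 42.9 CPM in SUS, against 23.7, 23.3 and 25.7 CPM in naive. Each SUS library lay above every naive library, and the log2 fold change of 0.45 (SE 0.278) had an adjusted p of 1 by edgeR and was 0.22 without SUS replicate 3. Kcnj8, Kcnh8, Kcnmb4 and Kcnt2 also lay higher in each SUS library than in any naive library, which makes 5 of 93 (5.38%), beside 3.85% of all genes. Kcnt2, a sodium-activated relative of Kcnt1, had 20.9, 22.4 and 25.3 CPM in SUS, against 19.5, 17.5 and 18.1 CPM in naive. Kcne3 was the 1 gene of 93 that lay lower in each SUS library, with 11.9, 10.4 and 6.41 CPM in SUS, against 14, 13 and 14.3 CPM in naive (log2 fold change -0.52, SE 0.275), beside 4.15% of all genes.

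The unadjusted threshold was met by Kcna6 and Kcnk12, named here after their values were seen. Kcna6, a relative of the axonal Kcna channels, had 25.3, 13.6 and 24.1 CPM in SUS, against 14.3, 11.8 and 16.5 CPM in naive, giving a log2 fold change of 0.55 (SE 0.258, adjusted p = 1 by edgeR). SUS replicate 2 lay among the naive values, and 39.6% of the exonic bases of Kcna6 are shared with another gene. Kcnk12, a silent two-pore subunit related to Kcnk13, had 3.90, 4.99 and 0.967 CPM in SUS, against 4.00, 8.16 and 7.31 CPM in naive. Its log2 fold change of -0.95 (SE 0.443, adjusted p = 1 by edgeR) was -0.52 without SUS replicate 3, where the gene had 8 counts. Kcnk1 had 22.3, 22.1 and 23.0 CPM in SUS, against 19.9, 32.6 and 49.3 CPM in naive, so that all SUS libraries lay inside the naive range (log2 fold change -0.60, SE 0.331, and -0.21 without naive replicate 3). Among the other genes at 3 times background or more, the smallest p-values belonged to Kcnk2 (-0.49, SE 0.315), Kcnc1 (-0.44, SE 0.439) and Kcnh4 (-0.25, SE 0.313) on the negative side. On the positive side they belonged to Kcnip3 (0.14, SE 0.302), Kcnd2 (0.15, SE 0.402), Kcnab2 (0.09, SE 0.357), Kcna4 (0.10, SE 0.383) and Kcnq5 (0.09, SE 0.402), all smaller than their errors. The 12 microglial genes had a median log2 fold change of 0.90 in this comparison and the 10 neuronal genes of -0.23. Without SUS replicate 2, singled out after the values were seen and the SUS library poorest in microglial and richest in neuronal genes, 16 genes of the family had an unadjusted p under 0.05, 4 positive and 12 negative, beside 8.84% of all genes. Without SUS replicate 1 or 3, any RES replicate or naive replicate 3 there were 0 or 1, and without naive replicate 1 there were 3. The share of all genes was not taken for these other runs.

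**Figure D4:**
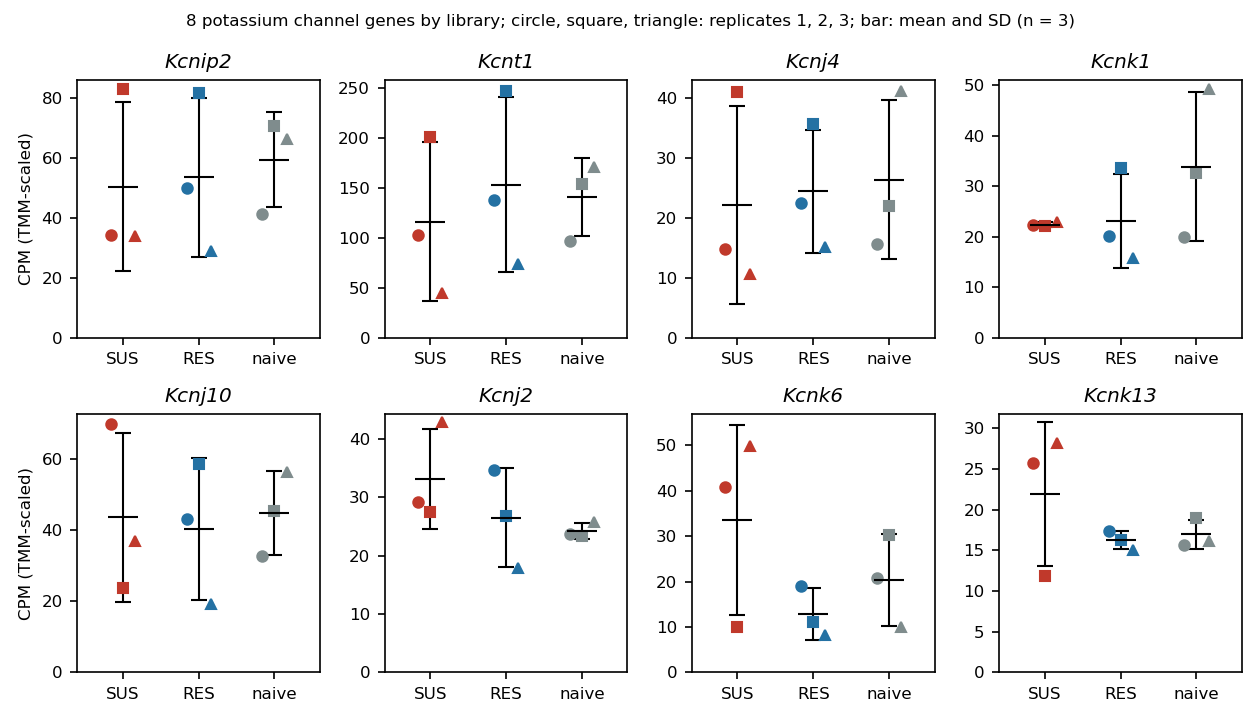
TMM-scaled CPM of 8 potassium channel genes in SUS, RES and naive libraries. Circles, squares and triangles are replicates 1, 2 and 3, and bars are the mean and SD (n = 3). SUS replicates 1 and 3 stand above SUS replicate 2 for Kcnk6 and Kcnk13 and below it for Kcnip2, Kcnt1 and Kcnj4.

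In RES compared with naive libraries, too, no gene of the family was called, and the gene with the smallest p was an auxiliary subunit at low counts. The edgeR test called 0 of 93 genes and 0% of all genes, and 1 gene of the family (1.08%) had an unadjusted p under 0.05, beside 0.921% of all genes. At that limit DESeq2 gave 1 of the family and limma-voom 3, beside 264 and 1671 of the 39210 genes, with no calls. The median log2 fold change was -0.06, with 40 positive and 53 negative values, and -0.02 for all genes. The gene was Kcne2, a small partner of several voltage-gated channels that is known from choroid plexus, with 6.66, 8.16 and 6.5 CPM in RES libraries, against 5.60, 1.81 and 3.79 in naive libraries. All RES libraries lay above all naive libraries, at a log2 fold change of 0.84 (SE 0.334, adjusted p = 1 by edgeR), on 38 to 50 counts in RES and 6 to 42 in naive. It averaged 1.53 times background. The microglial genes had a median log2 fold change of -1.42 here and the neuronal genes of -0.03.

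Kcnj11 and Kcnv2 were also higher in each RES library than in any naive library, so that 3 of 93 genes did so (3.23%), beside 3.31% of all genes. Kcnrg and Kcnv1 were lower in each RES library, 2 of 93 (2.15%), beside 2.82% of all genes. These 4 genes averaged from 1.00 to 1.49 times background. Kcnk1 had 20.2, 33.7 and 15.9 CPM in RES libraries, against 19.9, 32.6 and 49.3 in naive libraries, for a log2 fold change of -0.56 (SE 0.333), and the groups overlapped. This value was -0.17 without naive replicate 3, -0.34 without RES replicate 3 and -0.90 without RES replicate 2. Values for Kcnj2 were 34.7, 26.8 and 17.8 CPM in RES libraries, against 23.7, 23.3 and 25.7 in naive libraries, with RES on both sides of naive (0.12, SE 0.281). Kcna4 (0.31, SE 0.385), Kcnq5 (0.29, SE 0.403) and Kcnc1 (-0.34, SE 0.440) had the largest of the other fold changes chosen by p among genes at 3 times background or more. Kcnd2, Kcne3 and Kcnab1 were at 0.18, 0.12 and 0.13, and Kcnk2, Kcnu1 and Kcnip3 at -0.24, -0.14 and -0.13. The number at an unadjusted p under 0.05 ran from 0 without naive replicate 2 or naive replicate 3 to 3 without SUS replicate 3, and was 2 without RES replicate 3 or naive replicate 1. Shares of all genes were not taken for these runs.

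SUS compared with RES had the largest single fold change of the family, in the microglial gene Kcnk6, and it did not pass the test either. Kcnk6 had 40.7, 9.98 and 49.8 CPM in SUS, against 19.1, 11 and 8.19 CPM in RES. SUS replicates 1 and 3 lay above all RES libraries and SUS replicate 2 among them. Its log2 fold change was 1.40 (SE 0.505, unadjusted p = 0.0144, adjusted p = 0.87 by edgeR), on a level of 2.62 times background. The 12 microglial genes were all positive in the same comparison, with a median log2 fold change of 2.37 and 7 of them at an unadjusted p under 0.05, none called. All 9 oligodendrocyte genes were positive as well, with a median of 1.11, and the part of either cell type in the Kcnk6 value was not tested.

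By edgeR, 0 of 93 genes and 0% of all genes were called, and 4 of the family (4.30%) had an unadjusted p under 0.05, beside 5.68% of all genes. At that limit DESeq2 gave 2 of the family and limma-voom 7, beside 1885 and 3367 of the 39210 genes, and neither called any. The median log2 fold change was -0.07 for the family (36 positive, 57 negative) and 0.01 for all genes. Beside Kcnk6 the 4 were Kcnd1, Kcna6 and Kcne3, named after their values were seen. Kcnd1, an A-type pore subunit, had 27.2, 11.8 and 26.8 CPM in SUS, against 14.2, 13.3 and 10.8 CPM in RES (log2 fold change 0.78, SE 0.331, adjusted p = 0.87 by edgeR). Kcna6 had 25.3, 13.6 and 24.1 CPM in SUS, against 11.7, 14.4 and 15.0 CPM in RES (0.62, SE 0.259). In both genes, as in Kcnk6, replicates 1 and 3 of SUS were high and replicate 2 was within the RES range. Kcne3 had 11.9, 10.4 and 6.41 CPM in SUS, against 11.4, 12.9 and 20.3 CPM in RES (-0.64, SE 0.274), and the fold change was -0.34 without RES replicate 3. Kcnk13 was at 25.7, 11.8 and 28.2 CPM in SUS, against 17.4, 16.3 and 15.1 CPM in RES, again with SUS replicate 2 below and the other 2 above.

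Without SUS replicate 2, 14 genes of the family had an unadjusted p under 0.05, beside 11.6% of all genes. Of these, 4 were positive, Kcnk6 (1.83, adjusted p = 0.0637 by edgeR), Kcnd1 (1.08), Kcna6 (0.85) and Kcnk13 (0.73). The 10 negative ones were Kcna5 (-1.02), Kcnh3 (-0.95), Kcnj4 (-0.93), Kcnq5 (-0.83), Kcnj11 (-0.76), Kcne3 (-0.70), Kcng3 (-0.69), Kcnh2 (-0.67), Kcnv2 (-0.57) and Kcng1 (-0.54). No gene of the family, and 0 of 40455 genes in all, passed the adjusted threshold there. Without SUS replicate 3 the count was 0, without RES replicate 2 or RES replicate 3 it was 1, and without SUS replicate 1 it was 2. For these runs the share of all genes was not taken. Kcnmb4 and Kcnt2 were higher in each SUS library than in any RES library, 2 of 93 (2.15%), beside 3.41% of all genes. Kcnv2 was lower, 1 of 93 (1.08%), beside 4.22% of all genes. Kcnt1 had a log2 fold change of -0.39 (SE 0.527) and Kcnip3 of 0.28 (SE 0.302), and those of Kcnab1, Kcnk2 and Kcnh4 were -0.28, -0.26 and -0.19. Kcnu1, Kcna2 and Kcnab2 were at 0.12, 0.11 and 0.03.

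**Figure D5:**
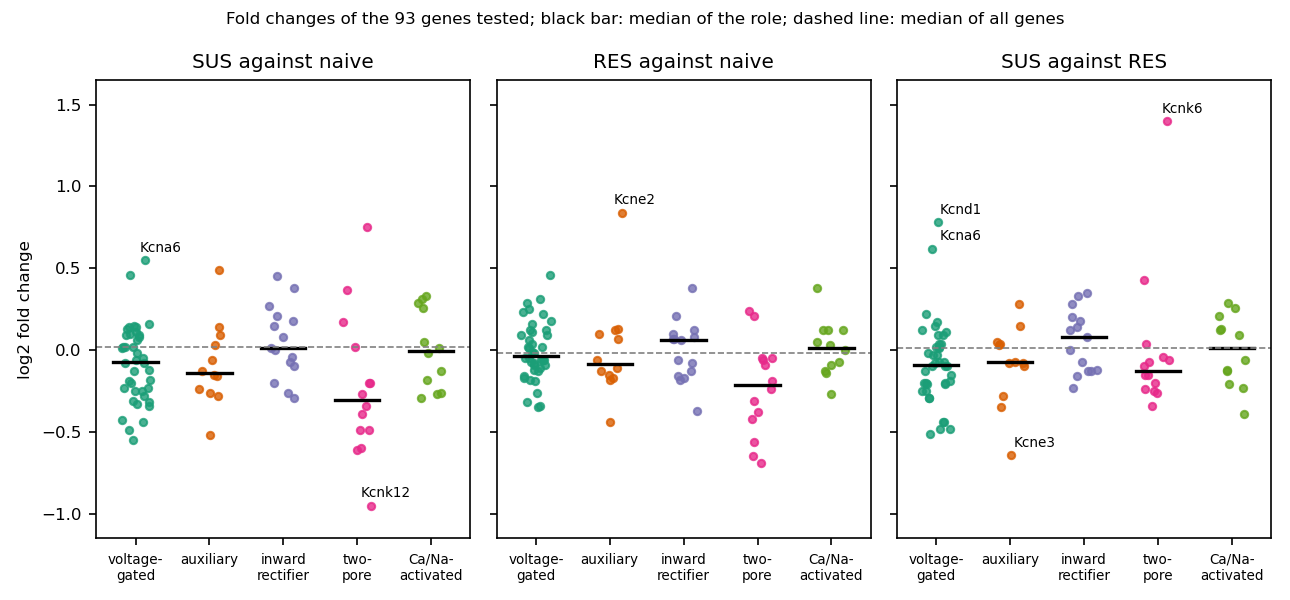
Log2 fold changes of the 93 genes tested in 3 comparisons, by channel class. Black bars are the median of a class and the dashed line the median of all genes tested, and genes with an unadjusted p under 0.05 are named. No gene passed the adjusted threshold, and the two-pore class has medians of -0.31, -0.21 and -0.12 in SUS against naive, RES against naive and SUS against RES.

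With both cocaine groups together, 6 libraries were compared with the 3 naive libraries, which also serve in the comparisons above. By edgeR 0 of 93 genes and 0% of all genes were called, and 2 of the family (2.15%) had an unadjusted p under 0.05, beside 1.38% of all genes. At that limit DESeq2 gave 2 of the family and limma-voom 4, beside 484 and 1697 of the 39210 genes, and neither called any. These 2 were Kcne2, at a log2 fold change of 0.67 (SE 0.295, adjusted p = 1 by edgeR), and Kcnk12, at -0.82 (SE 0.375). The family had 38 positive and 55 negative values and a median of -0.06, beside 0.01 for all genes. No gene of the family separated the 6 cocaine libraries from the naive ones, where 0.617% of all genes lay higher and 0.553% lower in each. Kcnk1 had a mean of 22.8 ± 5.92 CPM in the cocaine libraries (SD, n = 6) and 33.9 ± 14.8 CPM in naive (SD, n = 3), a log2 fold change of -0.58 (SE 0.275) that was -0.19 without naive replicate 3. Kcnk2 and Kcnc1 were at -0.36 and -0.39, Kcnh3 and Kcne3 at -0.22 and -0.18, and Kcna4, Kcnq5, Kcnd2, Kcnma1 and Kcnab2 between 0.08 and 0.21. The Kcnk12 value was -0.60 without SUS replicate 3, and the number of genes at an unadjusted p under 0.05 was 0 without RES replicate 1 or naive replicate 2 or 3, 1 without SUS replicate 1 or 2 or RES replicate 2 or 3, and 3 without naive replicate 1. The share of all genes was not taken for these runs.

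Kcnj10 and Kcnn1 showed how far the spread within a group reached. Kcnj10 had 69.9, 23.8 and 37.0 CPM in SUS, 43.1, 58.6 and 19.1 in RES, and 32.8, 45.3 and 56.3 in naive. The naive range lay inside both others, and the log2 fold changes were -0.04 (SE 0.422) in SUS against naive, -0.16 (SE 0.425) in RES against naive and 0.12 (SE 0.423) in SUS against RES. Kcnn1, a small-conductance calcium-activated channel, was even, at 14, 14.9 and 13.8 CPM in SUS, 13.5, 18.3 and 14.8 in RES, and 14.5, 17.5 and 18.9 in naive. Its fold changes were -0.26 (SE 0.214), -0.13 (SE 0.217) and -0.12 (SE 0.215) in the same order of comparisons, and the groups overlapped in each.

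Two-pore channels, singled out after the values were seen, had mostly negative fold changes. Only 2 of the 14 were at 3 times background or more, and 5 were under 1. In SUS against naive 10 of 14 were negative with a median of -0.31, in RES against naive 12 of 14 with a median of -0.21, and these comparisons share the naive libraries. In SUS against RES 11 of 14 were negative (median -0.12). Of all genes tested 47.8%, 52.6% and 48.8% were negative in these comparisons, in the order given, and of the family 57.0%, 57.0% and 61.3%. The class spread widely in SUS against RES, with Kcnk6 at 1.40 as the largest positive value. At most 1 gene of the class had an unadjusted p under 0.05 in a comparison, and none was called. The other classes had medians between -0.14 and 0.08 over these 3 comparisons.

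The genes that work with potassium channels or move potassium by other means were measured as well. Of 20 partners of the channels with other symbols, 10 were at 3 times background or more, among them Dpp6, a partner of A-type channels, at 7.45, and Dlg4, a synaptic scaffold that binds Kcna channels, at 4.24. None of the 20 was called in any of the 4 comparisons, and the 1 with an unadjusted p under 0.05 was Lgi3, a secreted ligand that associates with Kcna complexes, at 0.76 (SE 0.303) in SUS against RES. Of a list of 12 ion transport genes, made of sodium-potassium pump subunits, chloride cotransporters and the chloride channel Clcn2, 9 were at 3 times background or more, among them Atp1b2, a sodium pump subunit of astrocytes, at 17 times background. Again none was called, and 2 of the 12 had an unadjusted p under 0.05, both in SUS against RES, beside the same 5.68% of all genes. One of them, Slc12a2, the sodium-potassium-chloride importer, was at 1.12 (SE 0.466, unadjusted p = 0.0299, adjusted p = 0.87 by edgeR) in SUS against RES. It had 180, 61.7 and 167 CPM in SUS, against 94.6, 54.1 and 39.8 CPM in RES, with SUS replicate 2 within the RES range.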

How the data were processed

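Gene counts came from the authors' deposited table, raw counts of 52636 Ensembl genes in 9 columns. Tools named in the submitters' processing notes are STAR 2.5.2b, FastQC, HTSeq, DESeq2 and DESeq, with GRCm38 as the build. How strand was treated in counting, and the annotation, are not given in the sources used here. GENCODE mouse release 21 held 52489 of the IDs and supplied exonic lengths, symbols and overlaps. Of the 94 genes, 28 share exonic bases with another gene, 7 of them over 10%, and reads there may be split or dropped.

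Total counts were 11155730, 8626317 and 8081639 in SUS, 6895457, 4574518 and 4913649 in RES, and 6930527, 4471675 and 10667056 in naive. All genes were filtered (filterByExpr, 39210 left, 93 of the family), scaled by TMM (factors 0.743 to 1.58) and tested with edgeR 4.0.16 in R 4.3.3, quasi-likelihood F test, Benjamini-Hochberg threshold 0.05, two-sided. One model of 3 groups served the pairwise comparisons and a model of 2 groups cocaine against naive. SE is the fold change divided by the root of F. Alternatives were DESeq2 1.42.0, limma 3.58.1 (voom with sample quality weights), other scalings and filters, the replicate number as a block, only the groups compared, and each library left out. The fit was tried on simulated counts.

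Fold changes are named for the 5 smallest p each way among genes at 3 times background or more, for Kcnj2, Kcnn1 and Kcnj10, and for genes with an unadjusted p under 0.05. Other named genes came from a fixed list of 37 or from the highest levels. The members and lists were chosen with earlier results of these data known. A fold change at low counts depends on the prior count of the fit. Some genes of the family and of the lists are counted but not reported here by name.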

Additional observations from a re-analysis of the deposited data

Results flagged for a closer look

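Among the 6 libraries of the cocaine groups, 46 genes of the family were checked for a library that stands apart from the others. By Dixon's criterion 4 had one, where chance gives about 1 in 20 groups of independent, normally distributed values. The check was not run over all genes, so whether 4 is many for these libraries is not known. Kcnc4 had 3.14 CPM in SUS replicate 3, below 7.15 to 9.53 CPM in the other 5. Kcnk12 had 0.967 CPM in SUS replicate 3, below 3.65 to 4.99 CPM in the others. In RES replicate 2, Kcnn1 had 18.3 CPM, above 13.5 to 14.9 CPM in the others, and Kcnn2, another small-conductance calcium-activated channel, had 49.2 CPM, above 26.0 to 32.1 CPM. Naive libraries had 14.5, 17.5 and 18.9 CPM of Kcnn1 and 26.3, 34.5 and 48.9 CPM of Kcnn2. The Kcnn1 value thus lay within the naive range and the Kcnn2 value just above it. The low values of Kcnc4 and Kcnk12 lay below every naive value.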

How the results depend on the processing

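No gene was called in any comparison under any alternative run, and the smallest adjusted p of a gene of the family was 0.0637 (SUS against RES without SUS replicate 2). The family count at 3 times background was 86 against vomeronasal receptor genes and 6 at 5 times background. Genes of the family at an unadjusted p under 0.05 in SUS against naive (2 as reported) numbered 8 with limma-voom, 1 with upper quartile scaling and with no filter on low counts, and 0 with DESeq2, with genes of at least 10 CPM and with only the groups compared. In RES against naive (1) they numbered 3 with limma-voom and 0 at 10 CPM, and in SUS against RES (4) 7 with limma-voom and 2 with DESeq2, at 10 CPM and with only the groups compared. In cocaine against naive (2) they numbered 4 with limma-voom, 1 at 10 CPM and 0 with the replicate block. Counts over all genes stand beside the DESeq2 and limma-voom counts above, and are not given here for the other settings. Family medians became 0.03 in RES against naive and 0.02 in cocaine against naive at 10 CPM, and -0.16 in SUS against RES both there and with upper quartile scaling.

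Log2 fold changes that turned sign were small. With limma-voom they were Kcne3 (-0.13) in RES against naive, Kcnd2 (-0.07), Kcnab2 (-0.18), Kcna4 (-0.24), Kcnq5 (-0.27) and Kcnj10 (0.31) in SUS against naive, and Kcnab2 (-0.22) and Kcnj2 (-0.02) in SUS against RES. At 10 CPM Kcnu1 was -0.02 and Kcnab2 -0.04 in SUS against RES, and with upper quartile scaling Kcnab2 was -0.04. Deviations from the group means correlated at -0.17 to 0.172 in 9 same-numbered pairs, with 2 above 0.1, and at -0.314 to 0.299 in the other pairs. Same-numbered libraries were thus no more alike, which cannot show whether they were prepared together, as differences in cell content enter the same values. With the replicate block Kcnd2 (-0.02), Kcnab2 (-0.02) and Kcnq5 (-0.09) turned in SUS against naive, Kcnab2 in SUS against RES (-0.02) and Kcnab2 in cocaine against naive (-0.01).

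Leaving out RES replicate 3 and SUS replicate 3 together, chosen after the data were seen, gave 4 genes at an unadjusted p under 0.05 in RES against naive and 0 in SUS against naive and SUS against RES. The share of all genes was not taken in that run. Medians were then 0.02, 0.06 and 0.03 in RES against naive, SUS against naive and SUS against RES, and 0.05 in cocaine against naive. Kcne3 (-0.20), Kcnip3 (0.12) and Kcnj10 (0.17) turned in RES against naive, Kcnj10 (0.07) in SUS against naive, Kcna2 (-0.03), Kcnj10 (-0.10) and Kcnj2 (-0.12) in SUS against RES, and Kcnj10 (0.12) in cocaine against naive.

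Leaving out 1 library at a time, the count at an unadjusted p under 0.05 ran from 0 to 16 in SUS against naive, 0 to 3 in RES against naive, 0 to 14 in SUS against RES and 0 to 3 in cocaine against naive. Among these runs the share of all genes was taken only without SUS replicate 2, in SUS against naive and SUS against RES. Medians ran from -0.26 to 0.06, from -0.10 to 0.04 and from -0.24 to 0.05 in the first 3. Fold changes crossed 0 in SUS against naive for Kcna4 (-0.30 to 0.32), Kcnab2 (-0.41 to 0.30), Kcnd2 (-0.46 to 0.44), Kcnj10 (-0.57 to 0.25) and Kcnq5 (-0.54 to 0.34). In RES against naive they did for Kcna4 (-0.07 to 0.58), Kcnab1 (-0.07 to 0.36), Kcnd2 (-0.10 to 0.45), Kcne3 (-0.19 to 0.30), Kcnip3 (-0.43 to 0.13), Kcnj10 (-0.52 to 0.18), Kcnj2 (-0.11 to 0.34), Kcnk2 (-0.39 to 0.12), Kcnq5 (-0.09 to 0.53) and Kcnu1 (-0.37 to 0.01, and -0.38 without both libraries above). In SUS against RES they did for Kcna2 (-0.16 to 0.50), Kcnab2 (-0.47 to 0.31), Kcnj10 (-0.41 to 0.48), Kcnt1 (-1.05 to 0.12) and Kcnu1 (-0.03 to 0.35). Kcnj2 there ran from 0.10 to 0.56. In cocaine against naive they did for Kcna4 (-0.02 to 0.42), Kcnab2 (-0.10 to 0.29), Kcnd2 (-0.04 to 0.37), Kcnj10 (-0.30 to 0.10) and Kcnma1 (-0.01 to 0.19, and 0.24 without both libraries). The cause of these moves was not tested. The median count of a gene of the family was 51.5 to 172 per library. The median SE in SUS against naive was 0.393 for genes at 3 times background or more and 0.271 for the others.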

Other observations

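Of the 17 pairs of family members that lie within 500 kb of each other, some had similar levels, such as Kcne2 and Kcne1 at 1.53 and 1.33 times background, and others did not. On chromosome 3, Kcna3, Kcna2 and Kcna10 follow each other at gaps of 63.1 and 68.1 kb and averaged 2.01, 3.47 and 1.28 times background. On chromosome 6, Kcna5, Kcna1 and Kcna6 averaged 1.52, 3.65 and 1.35, at gaps of 105 and 61.9 kb. Kcnj9 and Kcnj10, 11.9 kb apart on chromosome 1, averaged 2.76 and 4.00, and Kcnj16 and Kcnj2, 38.2 kb apart on chromosome 11, 1.81 and 2.52.

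Chat was at 7.86 times background in SUS replicate 2 and at 0.877 to 2.5 in the other 8 libraries. In that library the M-type gene Kcnq3 was at 3.93 times background and the small-conductance genes Kcnn1, Kcnn2 and Kcnn3 at 1.63, 1.83 and 3.81. On this scale RES replicate 2, with Chat at 2.5, had higher values for all 4. In CPM, Kcnq3 was higher in SUS replicate 2, at 115 beside 110 in RES replicate 2. The small-conductance genes were higher in RES replicate 2 on both scales.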
